A study of Mus musculus with 30 samples.

Results

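The carboxylesterases are a family of serine hydrolases that cleave esters, amides and lipid esters, and most hepatic members sit inside the endoplasmic reticulum. The 10 genes examined (Ces1b, Ces1d, Ces1e, Ces1f, Ces1g, Ces2a, Ces2c, Ces2e, Ces3a and Ces3b) were chosen by symbol, and each was followed through the brightest probe set annotated to that gene alone. Of these 10 genes, 6 had such a probe set, out of 18193 genes with one on the array. Those 6 were Ces1d, Ces1e, Ces1f, Ces1g, Ces2a and Ces2e. Ces3a and Ces3b shared a single probe set, from which neither can be named, and Ces1b and Ces2c had no listed probe set, so these 4 genes were not analysed here.

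RNA from the livers of adult male mice on a C57BL/6J background was measured on 30 Affymetrix arrays, 3 in each of 10 groups. The mice had humanised CAR and PXR (hCAR/hPXR), lacked both receptors (CARko/PXRko), lacked PXR alone (PXRko), or were wild type (WT). CAR and PXR are the nuclear receptors encoded by Nr1i3 and Nr1i2. 1,4-Dichlorobenzene (DCB, a chlorinated solvent, 600 mg/kg) and cyproterone acetate (CPA, a synthetic steroid antiandrogen, 160 mg/kg) were given daily by gavage to hCAR/hPXR, CARko/PXRko and WT mice, and corn oil (0 mg/kg) to mice of all 4 genotypes. DCB and corn oil groups are labelled 3 days. CPA is labelled 6 days in hCAR/hPXR and WT mice and 3 days in CARko/PXRko mice, whereas the protocol describes 3 days for both compounds. By the labels, the CPA effects in hCAR/hPXR and WT mice set 6-day arrays against 3-day controls, and genotype and duration cannot be told apart where these effects are compared with CARko/PXRko mice. The design states 5 mice per group, but the labels do not tell whether the 3 arrays of a group came from different animals. In the fit to all 30 arrays, each gene's spread was estimated across the 10 groups together. A p-value from that fit therefore also depends on scatter in groups outside the comparison. This scatter is between arrays, and whether it is also between animals is not known.

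The hepatic carboxylesterases divide the work of drug and lipid metabolism. Ces1 enzymes hydrolyse many drugs and take part in mobilising stored triglyceride for secretion in lipoproteins, and Ces2 enzymes prefer substrates with a small acyl and a large alcohol group and also cleave glycerides. CAR and PXR switch on drug-metabolising genes when foreign compounds enter the liver, and Ces2a is among the genes that PXR agonists are known to induce in mice.

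The probes for the mouse receptors followed the genotypes. Nr1i3 averaged 6.31 ± 0.22 in hCAR/hPXR, 6.24 ± 0.24 in CARko/PXRko, 9.80 ± 0.26 in PXRko and 9.59 ± 0.43 log2 units in WT livers under corn oil (SD, n = 3 each). Nr1i2 averaged 4.78 ± 0.15 in hCAR/hPXR, 4.58 ± 0.26 in CARko/PXRko, 4.48 ± 0.20 in PXRko and 7.52 ± 0.69 log2 units in WT livers. The human receptors of the hCAR/hPXR mice were not measured by these mouse probes. All 10 hepatocyte markers lay above the array median on every array. On 26 of the 30 arrays the median of 17 skeletal muscle genes stayed between -0.16 and 0.19 log2 units of its mean in WT corn oil livers. It was 7.70 units above that mean on corn oil CARko/PXRko array 2, 7.56 on DCB CARko/PXRko array 3, 2.57 on DCB CARko/PXRko array 2 and 1.71 on corn oil PXRko array 3. DCB CARko/PXRko array 3 also carried adipose genes at 7.06 and adrenal genes at 5.81 units above WT corn oil, and DCB CARko/PXRko array 2 carried squamous epithelium genes at 4.14. The median of 7 Kupffer cell markers, relative to WT corn oil livers, lay between -1.01 and -0.18 units on the DCB arrays and between -1.32 and -0.48 on the CPA arrays, against -0.38 to 0.84 on the corn oil arrays. Its part in the treatment effects was not tested. Values without corn oil CARko/PXRko array 2, without the 2 arrays above 5 units or without all 4 stand beside the called CARko/PXRko results and wherever a call of a member depends on them. In whole liver, fewer cells of a type and less RNA per cell cannot be told apart.

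The 6 measured carboxylesterases were expressed in every group, and they moved in different directions. Each exceeded the array median on all 30 arrays, so the filter on dim genes removed none of the 6. Group means over the 10 groups spanned 2.49 log2 units for Ces2a (5.63-fold), 2.09 for Ces2e (4.27-fold), 1.36 for Ces1e (2.56-fold), 1.10 for Ces1f (2.14-fold), 0.97 for Ces1g (1.96-fold) and 0.46 for Ces1d (1.37-fold). Ces1e, Ces1f and Ces2e had their 4 highest group means in the 4 corn oil groups, and Ces1g had its 4 lowest there. The share of all genes with either order was not counted, so these orders are not shown to be particular to the family. Ces2a followed neither order, and its highest mean was in CPA WT livers and its lowest in DCB CARko/PXRko livers. These orders are descriptions, since several neighbouring groups overlapped: of the 9 pairs of neighbours in the order of group means, 3 did not overlap for Ces2a, 1 for Ces1f, 1 for Ces2e, and 0 for Ces1d, Ces1e and Ces1g.

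**Figure D1:**
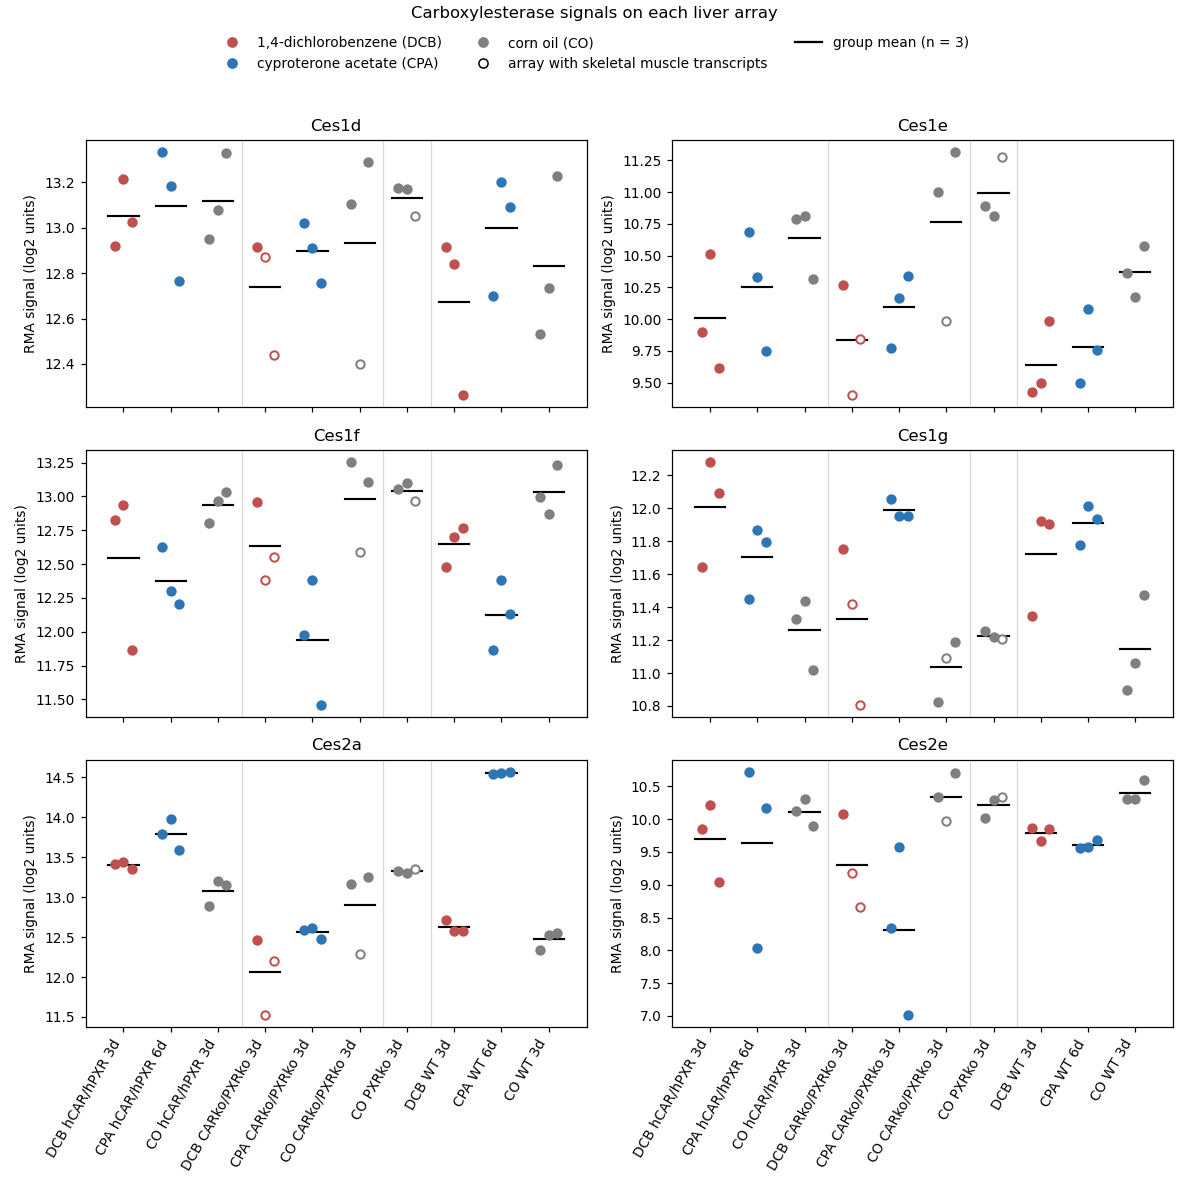
RMA signal in log2 units (vertical axes, each panel on its own scale) of the 6 measured carboxylesterases on each of the 30 arrays, by group (horizontal axis). Points are arrays, bars are group means (n = 3) and open circles mark the 4 arrays with skeletal muscle transcripts; the 3 CPA WT arrays stand above all others for Ces2a.

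Counted by comparison, CPA changed 3 of the 6 members in CARko/PXRko mice, 1 in hCAR/hPXR mice and 1 in WT mice, and DCB changed 1 in hCAR/hPXR mice. A change was called at an adjusted p under 0.05 in a limma fit on 12795 genes. With CPA in CARko/PXRko mice 1 member rose and 2 fell, where 5.49% of all genes were called, 2.18% higher and 3.31% lower. With CPA 1 member rose in hCAR/hPXR mice, where 4.42% of genes were called and 1.52% higher, and 1 rose in WT mice, where 1.12% were called and 0.485% higher. With DCB 1 member rose in hCAR/hPXR mice, where 7.64% of genes were called and 3.29% higher. With DCB 0 members were called by limma in CARko/PXRko mice, where 0.117% of genes were called, and 2 members and 8.1% of genes had an unadjusted p under 0.05. With DCB 0 members were called in WT mice, where 0.735% of genes were called, and 2 members and 10.1% of genes had an unadjusted p under 0.05. The 4 comparisons of genotypes under corn oil called 0 members by limma, with 1 member (Ces2a each time) at an unadjusted p under 0.05. There the share of genes called was 0.0234% for hCAR/hPXR minus WT, 0.0391% for CARko/PXRko minus WT, 0.0234% for PXRko minus WT and 0.0156% for CARko/PXRko minus PXRko. The share of genes at an unadjusted p under 0.05 was 1.45%, 3.31%, 1.72% and 2.76% in the same order. The median log2 difference of the 6 members was -0.23 with DCB in hCAR/hPXR, -0.59 in CARko/PXRko and -0.27 in WT mice, and -0.20 with CPA in hCAR/hPXR, -0.51 in CARko/PXRko and -0.21 in WT mice. The median of all genes tested lay between -0.02 and 0.01 in these effects. The CARko/PXRko groups hold 3 of the 4 arrays with muscle transcripts. Without corn oil CARko/PXRko array 2 the medians there were -0.84 with DCB and -0.85 with CPA. Without the 2 arrays whose muscle median exceeded 5 units they were -0.70 and -0.85. Without all 4, which leaves 1 DCB CARko/PXRko array, they were -0.36 and -0.85.

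**Figure D2:**
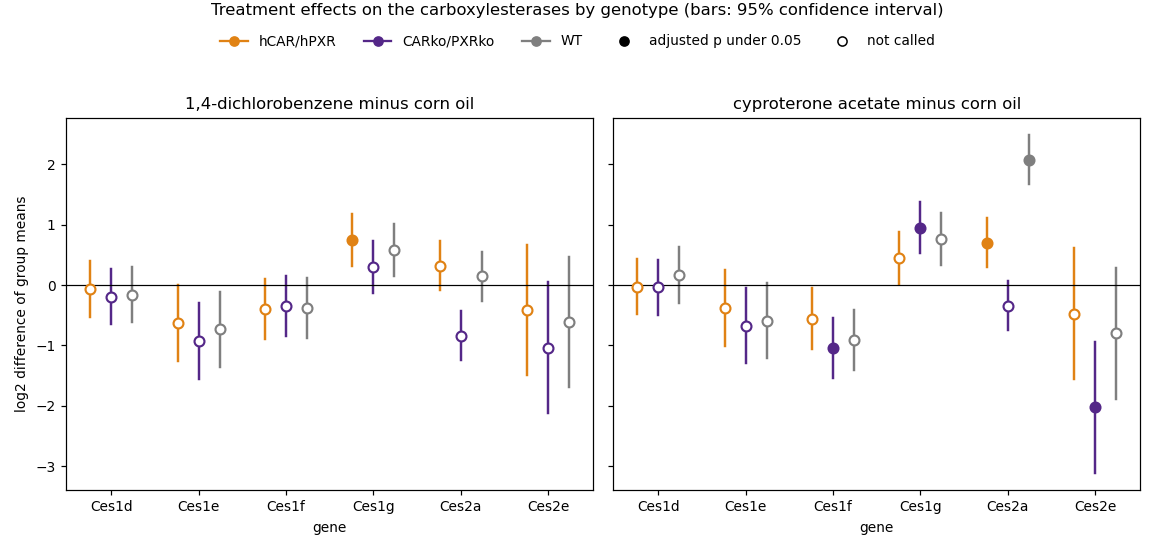
Log2 difference between treated and corn oil group means (vertical axis) for each measured carboxylesterase (horizontal axis) and genotype (colours), for DCB (left) and CPA (right). Bars are 95% confidence intervals and filled points have an adjusted p under 0.05; the Ces2a effect of CPA lies at 2.08 in WT mice and at -0.34 in CARko/PXRko mice.

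Ces2a, a hydrolase of drugs and glycerides formerly called Ces6, had the largest rise of the 6 members over the 6 treatment effects. Its gene and that of Ces2e lie in the same cluster on chromosome 8. The 250 bases upstream of both annotated starts are shown because these related genes share a cluster, and Ces2a rose in CPA WT livers while the Ces2e difference there was negative and not called. The sequences are from RefSeq (GRCm38.p6, 5′ to 3′ on the plus strand), at chr8:104733753-104734002 for Ces2a and chr8:104926010-104926259 for Ces2e. Capitals mark runs of at least 10 bases found in both windows.
Ces2a promoter: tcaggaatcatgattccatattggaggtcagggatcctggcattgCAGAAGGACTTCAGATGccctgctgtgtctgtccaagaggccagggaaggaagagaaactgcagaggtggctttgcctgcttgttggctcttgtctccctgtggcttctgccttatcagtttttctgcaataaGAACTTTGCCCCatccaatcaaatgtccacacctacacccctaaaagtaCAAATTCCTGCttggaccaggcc
Ces2e promoter: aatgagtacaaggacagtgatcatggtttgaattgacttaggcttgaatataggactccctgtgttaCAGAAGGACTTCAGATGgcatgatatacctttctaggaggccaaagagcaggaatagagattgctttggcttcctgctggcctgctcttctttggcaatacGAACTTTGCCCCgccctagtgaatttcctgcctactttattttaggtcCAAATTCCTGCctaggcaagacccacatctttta
The windows shared 3 such runs covering 40 bases of each. The longest, 17 bases, occurred in 2 of 32851 promoters of this length in the RefSeq table when both strands were searched, and these were the Ces2a and Ces2e promoters. Identity in a global alignment was 69.9% over 216 aligned bases for Ces2a with Ces2e, 68.3% over 243 for Ces2a with Ces2c and 55.8% over 226 for Ces2a with Ces1e. Over the 15 pairs of 6 genes it ranged between 55.8% and 69.9%. Pairs across subfamilies reached 66.5% (Ces1g with Ces2e) and 65.4% (Ces2e with Ces3b). Ces1b, which has more than 1 listed start, was not aligned.

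Promoter windows were present for 7 of the 10 members (Ces1b, Ces1e, Ces1g, Ces2a, Ces2c, Ces2e and Ces3b). The windows were searched on both strands for the hexamer that nuclear receptors bind (AGGTCA or AGTTCA), for direct repeats of it with a spacer of 1, 3 or 4 bases, for an everted repeat with a spacer of 6, and for the antioxidant element core TGACNNNGC. Ces2a held 1 hexamer, aggtca, at positions -226 to -221 from the start, and Ces1b held agttca, while 24.2% of all 32851 promoters held at least 1. Neither a repeat nor the antioxidant core was found in these letters for any of the 7 members. The repeats were rare in the whole table, in 0.067% of promoters for spacer 1, 0.0122% for spacer 3, 0.0244% for spacer 4 and 0.00913% for the everted repeat, and the antioxidant core was in 10.2%.

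In CPA WT livers Ces2a measured 14.55, 14.55 and 14.57 log2 units on the 3 arrays, against 12.34, 12.53 and 12.55 in corn oil WT livers. The groups were far apart and the CPA arrays were nearly identical. The rise was 2.08 ± 0.20 log2 units (SE), or 4.23-fold (limma, adjusted p = 1.27e-06, n = 3 each), and it was called under each of 18 alternative settings. The brightest probe set of an array lay between 15.21 and 15.34 units, so the CPA WT level was close to the top of the array's range.

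In CPA hCAR/hPXR livers Ces2a measured 13.80, 13.97 and 13.59 units, against 12.89, 13.21 and 13.16 in corn oil hCAR/hPXR livers. The groups did not overlap, and the control arrays already lay above those of WT mice. The rise was 0.70 ± 0.20 log2 units, or 1.63-fold (adjusted p = 0.0409). This call was near the threshold: it was lost without any of 5 arrays, with an adjusted p of 0.191, 0.0711 and 0.0764 without corn oil array 1, 2 or 3 and of 0.127 and 0.139 without CPA array 1 or 2. It was also lost with no filter on dim genes (adjusted p = 0.0509) and when the 2 groups were fitted alone (adjusted p = 0.0549).

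In CPA CARko/PXRko livers Ces2a measured 12.58, 12.62 and 12.47 units, against 13.16, 12.29 and 13.25 in corn oil CARko/PXRko livers. The CPA arrays lay close together between the control arrays, of which array 2, the one with muscle transcripts at 7.70 units above WT, was lowest. The difference was -0.34 ± 0.20 log2 units (adjusted p = 0.329). Without that control array it was -0.64, a fall with an adjusted p of 0.0378, of 0.0335 without both arrays whose muscle median exceeded 5 units, and of 0.00427 without all 4 arrays over 1 unit.

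The CPA effect on Ces2a differed between CARko/PXRko and WT mice by -2.42 ± 0.28 log2 units (limma, adjusted p = 5.14e-05), a difference in which labelled duration also changes. Ces2a was the 1 member called in this comparison, where 0.0703% of genes were called and 0.0547% called lower, and the call held under each of 24 alternatives. Without corn oil CARko/PXRko array 2 the difference was -2.73 (adjusted p = 5.29e-07). The effect in hCAR/hPXR mice was 1.38 ± 0.28 units smaller than in WT mice, a difference of -1.38 at an adjusted p of 0.0572, with 0 members called, 1 at an unadjusted p under 0.05 (4.91% of all genes) and 0.0625% of genes called. These groups share the 6-day label, and the difference passed the threshold under 5 of 24 alternatives, at an adjusted p of 0.00821 without the 2 arrays with most muscle RNA. The difference between hCAR/hPXR and CARko/PXRko mice was 1.04 ± 0.28 (adjusted p = 0.673), with 0 members called by limma, 2 at an unadjusted p under 0.05 (6.56% of all genes) and 0% of all genes called. It was 1.35 without corn oil CARko/PXRko array 2 and was not called (adjusted p = 0.0632), nor was it without the 2 arrays above 5 units (1.35, adjusted p = 0.0744), whereas without all 4 arrays with muscle transcripts it was called (1.35, adjusted p = 0.00114).

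DCB gave no called change in Ces2a in any of the 3 genotypes treated. In DCB hCAR/hPXR livers Ces2a measured 13.42, 13.44 and 13.35 units, against 12.89, 13.21 and 13.16 in corn oil hCAR/hPXR livers. In DCB CARko/PXRko livers it measured 12.46, 11.53 and 12.20, against 13.16, 12.29 and 13.25 in corn oil CARko/PXRko livers. In DCB WT livers it measured 12.71, 12.58 and 12.58, against 12.34, 12.53 and 12.55 in corn oil WT livers. The DCB arrays were above their controls without overlap in hCAR/hPXR and WT mice, by small steps, and below 2 of the 3 controls in CARko/PXRko mice.

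The DCB differences in Ces2a were 0.32 ± 0.20 in hCAR/hPXR mice (adjusted p = 0.344), -0.84 ± 0.20 in CARko/PXRko mice (adjusted p = 0.0992) and 0.15 ± 0.20 log2 units in WT mice (adjusted p = 0.892). The CARko/PXRko value became a called fall of 1.14 without corn oil array 2 (a difference of -1.14, adjusted p = 0.00176), of -1.04 without DCB array 1 (adjusted p = 0.0243), and of -1.21 without the 2 arrays with most muscle RNA (adjusted p = 0.00311). Without all 4 arrays with muscle transcripts, which leaves DCB array 1 alone, it was -0.74 (adjusted p = 0.154). Without DCB array 1, the DCB arrays that remain are those with muscle transcripts at 2.57 and 7.56 units, and with squamous, adipose and adrenal genes at 4.14, 7.06 and 5.81. Their part in the result was not tested. The DCB effect differed between hCAR/hPXR and CARko/PXRko mice by 1.16 ± 0.28 (adjusted p = 0.424), by 1.46 without corn oil CARko/PXRko array 2 (adjusted p = 0.0283), by 1.53 without the 2 arrays above 5 units (adjusted p = 0.0366) and by 1.06 without all 4 (adjusted p = 0.403). In that comparison 0 members were called by limma, 1 had an unadjusted p under 0.05 (6.78% of all genes), and 0.00782% of genes were called. Against WT the DCB effect differed by 0.17 ± 0.28 (95% confidence interval -0.40 to 0.75) in the humanised mice and by -0.99 ± 0.28 in the mice without receptors, each with an adjusted p of 1. Both comparisons called 0 members and 0% of genes by limma. At an unadjusted p under 0.05 they held 0 members, beside 3.11% of genes, and 1 member, beside 2.53%.

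Under corn oil, Ces2a had its lowest mean in WT mice. It measured 13.33, 13.31 and 13.35 units in PXRko livers, against 12.34, 12.53 and 12.55 in WT livers, and the PXRko arrays stood together above all WT arrays. The difference was 0.86 ± 0.20 log2 units, or 1.81-fold, with an adjusted p of 0.412 over all genes. It passed the threshold without the 2 arrays with most muscle RNA (0.86, adjusted p = 0.0392), neither of which is in the compared groups, and without all 4 (0.85, adjusted p = 0.00504), which include PXRko array 3. The hCAR/hPXR livers exceeded WT by 0.61 ± 0.20 units without overlap (adjusted p = 1). The CARko/PXRko livers exceeded WT by 0.43 ± 0.20 (adjusted p = 1), and lay at -0.43 ± 0.20 from PXRko (adjusted p = 1), or at -0.13 without corn oil CARko/PXRko array 2 (adjusted p = 1). The difference from WT was 0.73 without corn oil CARko/PXRko array 2 (adjusted p = 0.446) and without the 2 arrays above 5 units (adjusted p = 0.429), not called in either, and was called without all 4 arrays with muscle transcripts (0.73, adjusted p = 0.0265).

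**Figure D3:**
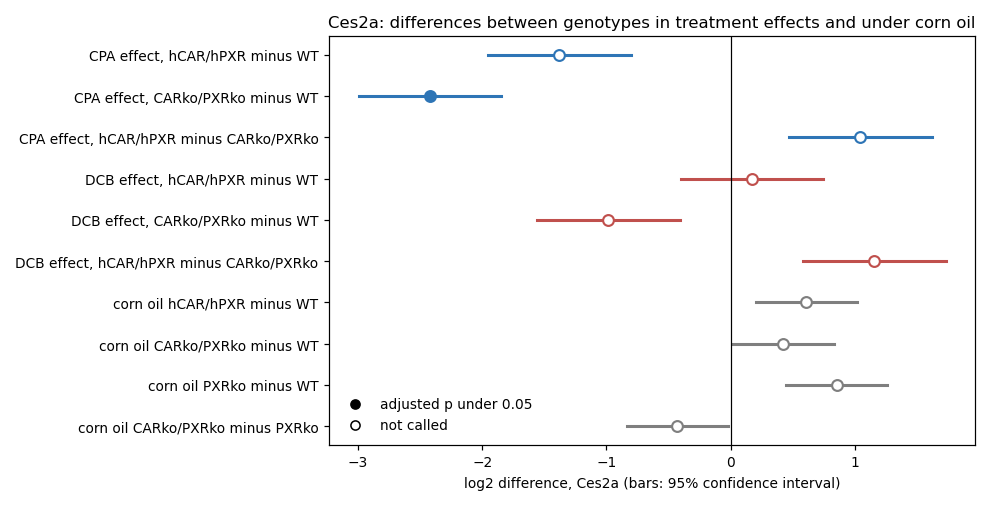
Log2 differences in Ces2a (horizontal axis) for the differences of the CPA and DCB effects between genotypes and for genotypes under corn oil (rows). Bars are 95% confidence intervals and the filled point, at -2.42 for CPA in CARko/PXRko minus WT mice, is the 1 value with an adjusted p under 0.05.

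Cyp2b10, a cytochrome P450 that CAR and PXR induce, is set beside these effects. With CPA it rose by 6.13 ± 0.77 in hCAR/hPXR, 3.51 ± 0.77 in CARko/PXRko and 7.28 ± 0.77 log2 units in WT mice (adjusted p = 2.76e-05, 0.00812 and 6.73e-06). The DCB rises were 6.20 ± 0.77 (hCAR/hPXR, adjusted p = 3.51e-05) and 3.98 ± 0.77 (WT, adjusted p = 0.0083). Cyp2b10 was uneven in DCB WT livers, from 7.40 to 12.08 (SD 2.34, n = 3), against 5.29 to 6.27 in corn oil WT livers. In CPA CARko/PXRko livers Cyp2b10 ran from 8.38 to 11.22 (SD 1.45), against 5.28 to 7.73 in corn oil CARko/PXRko livers. In DCB CARko/PXRko mice its difference was -0.56 ± 0.77 (adjusted p = 0.918). Without corn oil CARko/PXRko array 2 the CPA rise in CARko/PXRko mice was 4.14 (adjusted p = 0.00494), and without all 4 arrays with muscle transcripts 4.14 (adjusted p = 0.00835). DCB raised Cyp2b10 in hCAR/hPXR and WT mice, while Ces2a was not called with DCB in either. The DCB arrays for Ces2a lay above their controls in both, and the effects on Cyp2b10 and Ces2a were not compared by a test. Cyp3a11, also a cytochrome P450 gene, had group means between 14.50 (corn oil WT) and 14.95 log2 units (CPA WT). These lay close to the brightest probe sets of the arrays, at 15.21 to 15.34.

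Ces2e, a Ces2 enzyme that cleaves glycerides, was lower with CPA in CARko/PXRko mice and widely scattered there. It measured 8.34, 9.58 and 7.02 log2 units in CPA CARko/PXRko livers, against 10.34, 9.98 and 10.70 in corn oil CARko/PXRko livers. All CPA arrays lay below the controls, and the CPA arrays were more widely spread than the controls. The fall was -2.03 ± 0.52 log2 units, 4.08-fold lower (adjusted p = 0.0249). The call was lost without corn oil array 1 (adjusted p = 0.0745) or 3 (0.0901), without CPA array 1 (0.0619) or 3 (0.0973, with a difference of -1.38), and in a fit of these 2 groups alone (0.18). Without corn oil array 2, the one with muscle transcripts, the fall was -2.21 (adjusted p = 0.036), and it was -2.21 without all 4 such arrays (adjusted p = 0.0354).

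In CPA hCAR/hPXR livers Ces2e measured 10.72, 8.03 and 10.17 units, against 10.13, 10.31 and 9.90 in corn oil hCAR/hPXR livers. A single low array set this group's SD of 1.42, the highest of any member and group. In CPA WT livers it measured 9.56, 9.57 and 9.69, against 10.31, 10.31 and 10.59 in corn oil WT livers. These WT groups were tight and did not overlap. The differences were -0.47 ± 0.52 in hCAR/hPXR mice (adjusted p = 0.748) and -0.80 ± 0.52 in WT mice (adjusted p = 0.71). Without CPA array 2, the low one, the hCAR/hPXR difference was 0.33 (adjusted p = 0.82), so its sign rests on that array. The WT difference had an adjusted p of 0.00466 when these 2 groups were fitted without the others and their scatter. With DCB the differences were -0.41, -1.04 and -0.61 log2 units in hCAR/hPXR, CARko/PXRko and WT mice, each ± 0.52, with adjusted p of 0.693, 0.636 and 0.793. In WT mice, then, the CPA arrays stood above the controls for Ces2a and below them for Ces2e, and the Ces2a change was the one called.

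Ces1g, a Ces1 enzyme whose loss in mouse liver raises lipid synthesis and lipoprotein secretion, rose with CPA in CARko/PXRko mice and with DCB in hCAR/hPXR mice. In CPA CARko/PXRko livers it measured 12.05, 11.95 and 11.96 log2 units, against 10.82, 11.09 and 11.19 in corn oil CARko/PXRko livers. The CPA arrays agreed closely and none overlapped the controls. The rise was 0.95 ± 0.21 log2 units, or 1.94-fold (adjusted p = 0.008), and it had an adjusted p of 0.0552 without corn oil array 1. It was 0.98 without corn oil array 2 (adjusted p = 0.02) and without all 4 arrays with muscle transcripts (adjusted p = 0.00947). In DCB hCAR/hPXR livers Ces1g measured 11.65, 12.28 and 12.09, against 11.33, 11.44 and 11.02 in corn oil hCAR/hPXR livers. Every DCB array exceeded every control. The rise was 0.75 ± 0.21, or 1.68-fold (adjusted p = 0.0292). It missed the threshold without corn oil array 1, 2 or 3 (adjusted p = 0.0631, 0.0575 and 0.111), without DCB array 2 or 3 (0.102 and 0.0864), and in a fit of these 2 groups alone (0.146).

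The other treatment effects on Ces1g were positive and not called. With CPA they were 0.44 ± 0.21 (hCAR/hPXR, adjusted p = 0.292) and 0.76 ± 0.21 (WT, adjusted p = 0.0767). The WT arrays read 11.78, 12.01 and 11.94 with CPA, against 10.90, 11.06 and 11.48 with corn oil, without overlap, and the WT difference was called without corn oil WT array 3 (0.93, adjusted p = 0.0487) and without the 2 arrays with most muscle RNA (0.76, adjusted p = 0.0324). With DCB they were 0.29 ± 0.21 in CARko/PXRko mice (adjusted p = 0.778) and 0.58 ± 0.21 in WT mice (adjusted p = 0.253). The CPA effect in CARko/PXRko mice exceeded that in WT mice by 0.19 ± 0.29 (95% confidence interval -0.42 to 0.80, adjusted p = 0.905), so a difference of up to 0.80 in that direction or 0.42 in the other was not resolved.

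Ces1f, also called triacylglycerol hydrolase 2, fell with CPA in CARko/PXRko mice. Its probe set carries the suffix that Affymetrix gives to probes shared between related transcripts, so its signal may include other Ces1 transcripts. It measured 11.98, 12.38 and 11.46 units in CPA CARko/PXRko livers, against 13.26, 12.59 and 13.11 in corn oil CARko/PXRko livers. All CPA arrays lay below all controls. The fall was -1.04 ± 0.24 log2 units, 2.06-fold lower (adjusted p = 0.0128), with an adjusted p of 0.0755 without corn oil array 1, 0.0538 without corn oil array 3, 0.0545 without CPA array 3 and 0.154 in a fit of these 2 groups alone. It was -1.24 without corn oil array 2 (adjusted p = 0.008) and without all 4 arrays with muscle transcripts (adjusted p = 0.0089).

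In CPA WT livers Ces1f measured 11.87, 12.38 and 12.13 units, against 12.99, 12.87 and 13.24 in corn oil WT livers. The groups did not overlap, and the difference was -0.91 ± 0.24 (adjusted p = 0.0694), with an adjusted p of 0.00971 in a fit of these 2 groups alone. In CPA hCAR/hPXR livers it measured 12.63, 12.30 and 12.21, against 12.80, 12.97 and 13.03 in corn oil hCAR/hPXR livers, again without overlap. That difference was -0.56 ± 0.24 (adjusted p = 0.244). With DCB the differences were -0.39 in hCAR/hPXR, -0.35 in CARko/PXRko and -0.38 in WT mice, each ± 0.24, and the adjusted p was 0.347, 0.769 and 0.661. Of the CPA effects on Ces1f, that in CARko/PXRko mice differed from WT by -0.14 ± 0.34 (95% confidence interval -0.85 to 0.57, adjusted p = 0.941).

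Ces1e, or egasyn, anchors beta-glucuronidase in the endoplasmic reticulum. Its point estimate was negative in all 6 treatment effects and none was called. With DCB the differences were -0.63 in hCAR/hPXR, -0.93 in CARko/PXRko and -0.73 in WT mice, each ± 0.30 (adjusted p = 0.214, 0.331 and 0.364). With CPA they were -0.38, -0.67 and -0.59 in hCAR/hPXR, CARko/PXRko and WT mice, each ± 0.30 (adjusted p = 0.611, 0.203 and 0.529). Corn oil CARko/PXRko array 2 read 9.99, below arrays 1 and 3 at 11.00 and 11.32. Without that array the CARko/PXRko differences were -1.32 with DCB (adjusted p = 0.0393) and -1.06 with CPA (adjusted p = 0.0429), both then called as falls. The CPA call held without the 2 arrays above 5 units (-1.06, adjusted p = 0.0412) and without all 4 (-1.06, adjusted p = 0.0301). The DCB difference was not called without those 2 (-1.32, adjusted p = 0.0917) or without all 4 (-0.89, adjusted p = 0.81).

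Gusb encodes the beta-glucuronidase that egasyn binds. It averaged 9.54 ± 0.33 units in CPA hCAR/hPXR livers, against 8.82 ± 0.16 in corn oil hCAR/hPXR livers (SD, n = 3 each), a rise of 0.72 ± 0.18 log2 units (SE, adjusted p = 0.0224). The CPA differences were 0.41 ± 0.18 in CARko/PXRko mice (adjusted p = 0.203) and 0.36 ± 0.18 in WT mice (adjusted p = 0.518). With DCB they were -0.07 in hCAR/hPXR, 0.22 in CARko/PXRko and -0.20 in WT mice, each ± 0.18 (adjusted p = 0.872, 0.826 and 0.811). None of these 5 was called, and the CARko/PXRko differences were not called without corn oil array 2 either (0.38 with CPA, adjusted p = 0.351, and 0.20 with DCB, adjusted p = 0.776).

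Ces1d, the triacylglycerol hydrolase of hepatocytes, was the steadiest of the 6 across groups. On the brightest of its 3 probe sets, group means lay between 12.67 (DCB WT) and 13.13 log2 units (corn oil PXRko). The other probe sets had their lowest means in DCB CARko/PXRko livers, at 11.27 and 12.51. In hCAR/hPXR livers the brighter of them read 13.03 with DCB and 12.85 with corn oil, and the dimmer 11.61 and 11.63. On the brightest probe set the CPA differences of Ces1d were -0.03 in hCAR/hPXR, -0.03 in CARko/PXRko and 0.17 in WT mice, each ± 0.22. Its DCB differences were -0.07, -0.19 and -0.16 in hCAR/hPXR, CARko/PXRko and WT mice, each ± 0.22. The adjusted p was at least 0.896 throughout. The 95% confidence intervals reached from -0.65 at the lowest to 0.62 at the highest, so changes of up to about that size were not excluded by the fit.

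Across the 10 group means, which share arrays and normalization, Ces1f and Ces2e varied together (Pearson r = 0.869) and Ces1f ran opposite to Ces1g (r = -0.868). Ces2a had r = 0.659 with Ces1d, 0.395 with Ces1g, 0.122 with Ces2e, 0.0113 with Ces1e and -0.319 with Ces1f. Outside the family, the tested genes whose group means were most like those of Ces2a were Abhd3 (r = 0.925), 4930504C09Rik (0.923) and Lrp5 (0.91). For Ces2e they were Bri3bp (0.956), Ints7 (0.94) and Ell (0.938), and for Ces1e Tpcn2 (0.921), Ppa2 (0.919) and Gm16551 (0.894). These are descriptions over 10 points, picked as the highest of all genes tested. Group means of 4930504C09Rik (4.81 to 5.58), Lrp5 (5.25 to 5.81) and Tpcn2 (5.32 to 5.65) lay near the array medians of 5.36 to 5.44. Abhd3 spanned 0.46 log2 units over the groups where Ces2a spanned 2.49.

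Of 10 further carboxylesterase genes, 7 had a probe set of their own and 5 passed the filter (Ces1c, Ces1h, Ces2g, Ces4a and Ces5a), and limma called 0 of the 5 in any of 16 comparisons. Ces1h (mean 5.15) and Ces4a (mean 5.30) exceeded the array median on only 3 and 9 of the 30 arrays. At such dim signals the lack of a call says little. In the 6 treatment effects, 1 of the 5 had an unadjusted p under 0.05 with DCB and 1 with CPA, both in CARko/PXRko mice. With DCB 8.1% of all genes had an unadjusted p under 0.05 there. With CPA that share is not given here, and 5.49% of all genes were called at an adjusted p under 0.05. Ces1c, the secreted carboxylesterase of mouse plasma, kept group means between 14.16 and 14.38 log2 units. Ces2g averaged 7.67 ± 0.48 in CPA CARko/PXRko livers, against 8.36 ± 0.12 in corn oil CARko/PXRko livers (SD, n = 3 each), a difference of -0.69 ± 0.26 (SE, adjusted p = 0.125), and of -0.66 without corn oil array 2 (adjusted p = 0.236).

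Among 30 tested genes for other hepatic ester and lipid hydrolases, 1 was called with DCB in WT mice, 2 with DCB in hCAR/hPXR mice and 2 with CPA in CARko/PXRko mice, where 0.735%, 7.64% and 5.49% of all genes were called. With DCB in WT mice 1 rose, Ephx1, which encodes microsomal epoxide hydrolase (1.01 ± 0.21 log2 units, adjusted p = 0.0126). With DCB in hCAR/hPXR mice 2 fell, the paraoxonase gene Pon2 (-0.56 ± 0.14, adjusted p = 0.0163) and the fatty acid amide hydrolase gene Faah (-0.51 ± 0.15, adjusted p = 0.0343). With CPA in CARko/PXRko mice 2 fell, the neutral cholesterol ester hydrolase gene Nceh1 (-1.50 ± 0.37, adjusted p = 0.0205) and the acyl-protein thioesterase gene Lypla2 (-0.32 ± 0.09, adjusted p = 0.0482). With DCB in CARko/PXRko mice and with CPA in hCAR/hPXR and WT mice limma called 0 of the 30, while 3, 2 and 5 had an unadjusted p under 0.05, beside 8.1%, 16% and 10.3% of all genes. Without corn oil CARko/PXRko array 2, Nceh1 had a CPA difference of -1.60 (adjusted p = 0.0342) and Lypla2 of -0.35, no longer called (adjusted p = 0.079). Without the 2 arrays above 5 units, limma called 3 of the 30 lower with CPA in CARko/PXRko mice. Nceh1 (-1.60, adjusted p = 0.0331) and Faah (-0.48, adjusted p = 0.0303) were among them, and Lypla2 was not (-0.35, adjusted p = 0.0725). The median of the list was between -0.11 and 0.06 log2 units in the 6 treatment effects.

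Among 20 tested genes of triglyceride secretion and storage, CPA changed 3 in CARko/PXRko mice and 3 in hCAR/hPXR mice, where 5.49% and 4.42% of all genes were called. In CARko/PXRko mice the lipid droplet gene Plin5 rose (1.19 ± 0.30, adjusted p = 0.0205), and the droplet gene Plin2 (-1.08 ± 0.31, adjusted p = 0.0409) and the fat storage gene Fitm1 (-2.52 ± 0.33, adjusted p = 6.1e-05) fell. In hCAR/hPXR mice Plin5 (1.45 ± 0.30, adjusted p = 0.00472) and the lipoprotein gene Apoc3 (0.34 ± 0.09, adjusted p = 0.0251) rose and Fitm1 fell (-1.36 ± 0.33, adjusted p = 0.0162). With CPA in WT mice limma called 0 of the 20, and 3 had an unadjusted p under 0.05, beside 10.3% of all genes. With DCB it called 0 of the 20 in any genotype, and 3, 2 and 0 had an unadjusted p under 0.05 in hCAR/hPXR, CARko/PXRko and WT mice, beside 23%, 8.1% and 10.1% of all genes. Without corn oil CARko/PXRko array 2 the CPA differences in CARko/PXRko mice were 1.298 for Plin5 (adjusted p = 0.0314), -2.64 for Fitm1 (adjusted p = 0.000152) and -1.06 for Plin2, no longer called (adjusted p = 0.0977). Whether the effects differ between the compounds was not tested.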

How the data were processed

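Liver RNA was measured on 30 arrays, 3 to a group. The authors used RMA, per the submitters' processing notes, which corrects background, normalizes between arrays and summarizes probes (version not given in the sources used here). As deposited, the table held log2 summaries of 45037 probe sets, with array medians between 5.36 and 5.44, and the number of arrays limits the precision. The platform annotation gave 34945 probe sets a single gene, 932 several genes and 9160 none. RefSeq (GRCm38.p6) held the gene identifiers of 34741 of them and changed 0 symbols. Each gene was represented by its single-gene probe set with the highest mean over the 30 arrays, and 12795 genes above the array median on at least 3 arrays were tested.

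Group means of the 10 groups were estimated in 1 limma model (version 3.58.1, R 4.3.3; lmFit, eBayes, two-sided; 20 residual degrees of freedom, prior 3.62). Each of 16 comparisons was adjusted (Benjamini-Hochberg) over the full set of genes, and errors of differences are standard errors. The fit was tested on simulated data. Arrays correlated at 0.898 to 0.995, and none held identical values. Same-numbered arrays deviated together (r over 0.1) in 42 of 135 pairs (lowest -0.59, highest 0.57). This count was not set against differently numbered pairs, so it does not settle whether the replicate numbers pair the samples. The main fit did not pair them. Promoters were read from a RefSeq table.

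The members, lists and comparisons were chosen with earlier results of these data known. All members were named, list genes where called, and for the 3 members with the widest range the 3 genes most like each. The alternatives were other filters, normalizations, probe set means, variance models, array weights, a replicate block, fits of the compared groups alone, a 2-fold minimum, and leaving out each array or those with muscle transcripts.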

Additional observations from a re-analysis of the deposited data

Results flagged for a closer look

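The CPA effect on Ces2a was flagged because it differed between genotypes by a test of the difference itself. It was 2.42 log2 units lower in CARko/PXRko than in WT mice (a difference of -2.42 ± 0.28, SE, limma, adjusted p = 5.14e-05). Ces2a measured 12.58, 12.62 and 12.47 log2 units in CPA CARko/PXRko livers and 14.55, 14.55 and 14.57 in CPA WT livers, so the CARko/PXRko arrays lay below all WT arrays. The labelled duration, 3 days against 6 days, changes with the genotype in this comparison, and the 2 cannot be told apart.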

How the results depend on the processing

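Under the alternatives run, 0 called values reversed their direction. Calls over all genes changed too. With array weights 757 genes were called for DCB in WT mice (94 in the main fit). For CPA 1464 were called in WT mice (143) and 3307 in CARko/PXRko mice (702). The weights gave 96 for DCB in CARko/PXRko mice (15). Under corn oil they gave 75 for CARko/PXRko minus WT (5) and 23 for PXRko minus WT (3). For the DCB effect in hCAR/hPXR minus CARko/PXRko mice they gave 7 (1). For the CPA effect they gave 43 in hCAR/hPXR minus WT (8) and 172 in hCAR/hPXR minus CARko/PXRko mice (0). In fits of the compared groups alone 82 were called for DCB in hCAR/hPXR mice (978). For CPA those fits called 774 in WT mice (143) and 136 in CARko/PXRko mice (702). They called 398 for CPA in hCAR/hPXR mice (566) and 12 for the CPA effect in hCAR/hPXR minus WT mice (8). Without the 2 arrays over 5 units CPA calls were 211 in WT mice (143) and 598 in CARko/PXRko mice (702). DCB calls in CARko/PXRko mice were then 48 (15), and PXRko minus WT calls under corn oil 5 (3). Calls for the DCB effect in hCAR/hPXR minus CARko/PXRko mice were 1 (1). Those for the CPA effect in hCAR/hPXR minus WT mice were 10 (8). For the filters, the 2-fold minimum, the 4 arrays left out together and single arrays left out, calls over all genes are not given here. The count of members called changed as follows. With array weights it was 1 for DCB in WT mice, 1 for DCB in CARko/PXRko mice, 3 for CPA in WT mice, 5 for CPA in CARko/PXRko mice, 1 each for CARko/PXRko minus WT and PXRko minus WT under corn oil, and 1 each for the difference of the DCB effect between hCAR/hPXR and CARko/PXRko mice and of the CPA effect between hCAR/hPXR and WT and between hCAR/hPXR and CARko/PXRko mice. In fits of the compared groups alone it was 0 for DCB in hCAR/hPXR mice, 4 for CPA in WT mice, 0 for CPA in hCAR/hPXR mice, 1 for CPA in CARko/PXRko mice and 1 for the CPA effect in hCAR/hPXR minus WT mice. A 2-fold minimum left 2 for CPA in CARko/PXRko mice, where Ces1g at 1.94-fold was lost, and 0 with DCB and 0 with CPA in hCAR/hPXR mice, as did no filter on dim genes for CPA in hCAR/hPXR mice (0), and a filter at the 75th percentile gave 1 for the CPA effect in hCAR/hPXR minus WT mice. Without the 4 arrays with muscle transcripts over 1 unit, which leaves 1 DCB CARko/PXRko array assumed to vary like the other groups, the count was 2 for CPA in WT mice, 5 for CPA in CARko/PXRko mice, 1 each for CARko/PXRko minus WT and PXRko minus WT under corn oil, and 1 each for the CPA effect in hCAR/hPXR minus WT and in hCAR/hPXR minus CARko/PXRko mice. Without the 2 arrays over 5 units it was 1 for DCB in CARko/PXRko mice, 2 for CPA in WT mice, 5 for CPA in CARko/PXRko mice, 1 for PXRko minus WT under corn oil, 1 for the DCB effect in hCAR/hPXR minus CARko/PXRko mice and 1 for the CPA effect in hCAR/hPXR minus WT mice. Leaving out 1 array at a time gave 0 to 1 for DCB in hCAR/hPXR mice, 0 to 2 for DCB in CARko/PXRko mice, 1 to 2 for CPA in WT mice, 0 to 1 for CPA in hCAR/hPXR mice, 0 to 5 for CPA in CARko/PXRko mice, with 5 without corn oil array 2 and 0 without corn oil array 1, and 0 to 1 for the DCB effect in hCAR/hPXR minus CARko/PXRko mice. With the replicate number as a block the count of members called equalled the main count in all 16 comparisons (3 for CPA in CARko/PXRko mice), and the count over all genes was 711 with the block and 702 without it there, and 148 with it and 143 without it for CPA in WT mice. By mean correlation, 13 of 30 arrays were closest to arrays of their own number. The cause of these changes was not tested, beyond the fewer arrays or groups fitted.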

Other observations

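Ces2e scattered more than the other measured carboxylesterases in the treated mutants. Its SD was 1.42 log2 units in CPA hCAR/hPXR, 1.28 in CPA CARko/PXRko, 0.72 in DCB CARko/PXRko and 0.60 in DCB hCAR/hPXR livers, and its median SD over the 10 groups was 0.28 (n = 3 each). In DCB hCAR/hPXR livers Ces1f came close, with an SD of 0.59. In DCB CARko/PXRko livers Ces2e read 10.07 on array 1. It read 9.18 and 8.66 on arrays 2 and 3, which carry transcripts of other tissues, and their part in this SD was not tested. In WT livers the SD of Ces2e was 0.07 with CPA, 0.11 with DCB and 0.16 with corn oil. Ces2a had a median SD of 0.10. Its SD was 0.01 in CPA WT livers, at a level of 14.55 to 14.57 units. That level is close to the brightest probe sets of the arrays at 15.21 to 15.34, where spread can be compressed. In corn oil PXRko livers, at a mean of 13.33, the SD of Ces2a was 0.02. The part of signal level in these SDs was not tested. The highest SD of Ces2a was 0.53, in corn oil CARko/PXRko livers, the group that holds array 2. The difference in spread was not tested.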
